A study of Mus musculus with 8 samples.

Results

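The genes described are 9 cell-cell adhesion molecules of mouse mammary epithelial cells, chosen by name among the 37310 genes of the deposited count table: the nectins *Pvrl1*, *Pvrl2* and *Pvrl3*, the nectin-like molecule *Cadm1*, the immunoglobulin-type molecules *Bcam*, *Igsf11*, *L1cam* and *Alcam*, and the epithelial cell adhesion molecule *Epcam*. They are matched by symbol, but the list was drawn up with earlier results of these data known. Shares of called members therefore describe the list only and are no unbiased comparison with all genes. Of the 9 members, 7 had enough counts to be tested among the 13028 tested genes. *Epcam* and *L1cam* were not tested and are given by their counts.

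Nectins are membrane proteins with immunoglobulin-like domains that bind each other across the gap between neighbouring cells and are tied to actin by afadin, the product of *Mllt4*, so that they help to place adherens junctions. Other immunoglobulin-type adhesion molecules bind copies of themselves, other family members or matrix proteins such as laminin, whereas EpCAM is of another structural family and marks many simple epithelia. TGF-β drives epithelial-mesenchymal transition (EMT), in which epithelial cells loosen such contacts.

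The study asked how loss of *Lnc-Nr6a1*, a long noncoding RNA whose gene hosts the miR-181a2 and miR-181b2 hairpins, changes NMuMG cells, a line of mouse mammary gland epithelium that was not tumour-derived, and their early response to TGF-β1. RNA was sequenced from control and *Lnc-Nr6a1* knockout (KO) cells, either untreated or exposed to 10 ng/ml TGF-β1 for 2 h, with 2 libraries for each of the 4 combinations. The knockout was made with Cas9 and guides flanking the promoter and first exon and was grown from single sorted cells. Which clone or clones gave the libraries is not stated in the sources used here, so that a difference between genotypes and a difference between clones cannot be told apart.

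Counts per library summed to between 4297832 and 13574397. *Lnc-Nr6a1* itself, counted as *Gm13507*, was at 3 and 14 counts in untreated controls and at 25 and 35 in treated ones. It had 11 and 7 counts in the untreated libraries labelled KO and 0 in both treated libraries labelled KO, so that the untreated libraries were not separated by the targeted gene and are named by their labels throughout. The epithelial markers *Cdh1* (193 to 400 CPM, counts scaled to library size), *Krt8*, *Krt18* and *Krt19* were high in every library, *Krt7* had 4 to 14 counts, and *Cldn3* and *Esrp1* had no count in any. Summed over the 7 epithelial markers, levels were 5873 to 5951 CPM in control, 6632 to 6970 in KO, 8028 to 10928 in treated control and 7937 to 10387 in treated KO libraries. Of the 5 tested, edgeR's quasi-likelihood test called *Cdh1* as higher in treated KO than treated control libraries (log2 fold change 0.61, adjusted p = 0.0433). It called *Krt8* (0.65) and *Krt18* (0.96) as higher after TGF-β in control libraries. These calls stood beside 15.0% and 9.16% of all tested genes. The 7 mesenchymal markers came to 2692 to 2717 CPM in control, 3679 to 3748 in KO, 2929 to 3053 in treated control and 3833 to 3996 in treated KO libraries. This sum was highest in the groups labelled KO, but most of it was *Vim*, so that it describes *Vim* more than the set. Of the 4 tested mesenchymal markers 0 were called between genotypes, beside 1.83% of all tested genes untreated and 15.0% treated. Of the 4 endothelial, 4 blood and 5 neural or melanocytic markers, none exceeded 8 counts in a library apart from *Cd68* (19 to 40) and *Mitf* (13 to 53). The part of these marker levels in the results below was not tested.

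Sequences are shown first for the genes on which the results turn. *Bcam* and *Igsf11* are the members called between genotypes, and *Epcam* is the member with the fewest counts. Their promoters, 300 bases around the RefSeq start site on GRCm38.p6 and read in the direction of the gene, are printed with the SMAD box CAGAC, bound by SMAD proteins of the TGF-β pathway, and the E-box CAGGTG, bound by Snail and ZEB proteins, in capitals on either strand.
*Bcam* promoter, chr7:19770483-19770782, minus strand: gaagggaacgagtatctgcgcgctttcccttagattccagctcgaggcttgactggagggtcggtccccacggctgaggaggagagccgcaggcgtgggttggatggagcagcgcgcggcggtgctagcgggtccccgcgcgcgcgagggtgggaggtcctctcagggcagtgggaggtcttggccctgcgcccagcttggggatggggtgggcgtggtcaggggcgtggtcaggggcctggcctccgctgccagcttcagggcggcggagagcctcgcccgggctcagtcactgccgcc
*Igsf11* promoter, chr16:38902095-38902394, plus strand: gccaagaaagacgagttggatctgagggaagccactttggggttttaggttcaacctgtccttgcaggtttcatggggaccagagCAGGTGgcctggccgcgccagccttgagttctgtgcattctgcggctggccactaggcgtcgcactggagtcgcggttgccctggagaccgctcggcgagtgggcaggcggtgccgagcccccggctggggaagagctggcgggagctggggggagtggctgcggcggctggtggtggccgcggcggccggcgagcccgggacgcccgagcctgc
*Epcam* promoter, chr17:87635729-87636028, plus strand: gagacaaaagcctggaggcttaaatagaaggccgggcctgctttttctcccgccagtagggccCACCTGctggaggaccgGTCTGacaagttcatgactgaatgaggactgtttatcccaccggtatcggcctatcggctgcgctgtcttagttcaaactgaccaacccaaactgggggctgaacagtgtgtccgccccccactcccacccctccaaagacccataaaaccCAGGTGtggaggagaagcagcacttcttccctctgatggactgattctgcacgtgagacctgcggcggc
The *Bcam* promoter held neither motif and 1 GC box (GGGCGG, searched on both strands and not capitalised), and 71.0% of its bases were G or C, against a median of 52.7% over 32851 RefSeq promoters of the same length. The *Igsf11* promoter held 1 E-box and no SMAD box at 69.0% G or C. The *Epcam* promoter held 2 E-boxes and 1 SMAD box at 57.0% G or C. Of all promoters 49.59% held a SMAD box, 20.21% this E-box and 35.66% a GC box, so that each match is a common one, and a match describes the letters only. Promoters were found for 7 of the 9 members in the table, with *Pvrl1* and *Cadm1* unmatched.

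Because the *Lnc-Nr6a1* gene hosts miR-181 hairpins, members were also read for the miR-181 seed match. The mature RNAs, from RefSeq, share their seed, bases 2 to 8 in capitals.
miR-181a-5p: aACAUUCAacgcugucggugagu
miR-181b-5p: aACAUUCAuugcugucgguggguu
The longest annotated 3′ UTR of each member was searched for TGAATGT, the reverse complement of that seed as DNA, and only *Igsf11* of the 9 held it, once, at base 1819 of 1964.
*Igsf11* site: taaataaaTGAATGTctatactt
The capitals mark the match, which is not followed by A. The same letters stood in 17.44% of the 11209 tested genes with an annotated 3′ UTR against 1 of the 9 members, and mature miRNAs were not measured in these libraries.

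Per kb of annotated exon, the scale on which levels of different genes can be compared, the members spanned more than 3 orders of magnitude. *Cadm1*, a homophilic adhesion molecule also called nectin-like 2 or SynCAM1, led with a mean of 22.7 CPM per kb over the 8 libraries, and *Alcam*, a molecule that binds itself and CD6, and *Igsf11*, a homophilic molecule that also binds the immune receptor VISTA, followed at 18.8 and 17.6. *Cadm1* was above *Alcam* in 8 of 8 libraries, whereas *Alcam* was above *Igsf11* in all 4 control libraries and in 1 of the 4 libraries labelled KO. *Pvrl2* (4.25 CPM per kb), *Bcam* (3.60) and *Pvrl3* (2.34) formed a middle tier whose order depended on the genotype. *Bcam* lay below *Pvrl3* in all 4 control libraries (1.28 to 1.65 against 1.96 to 3.78 CPM per kb) and above it in all 4 libraries labelled KO (4.27 to 7.13 against 1.38 to 2.44). *Pvrl2* was above *Bcam* in all 4 control libraries and in 1 of the 4 labelled KO. *Pvrl1* was far lower at 0.125 CPM per kb, *L1cam* lay at 0.0409 and *Epcam* at 0.0115, and of these *Pvrl1* was above *L1cam* in all 4 control libraries and in 1 of the 4 labelled KO. Every library kept *Igsf11* above *Pvrl2* and *Pvrl3* above *Pvrl1*.

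**Figure D1:**
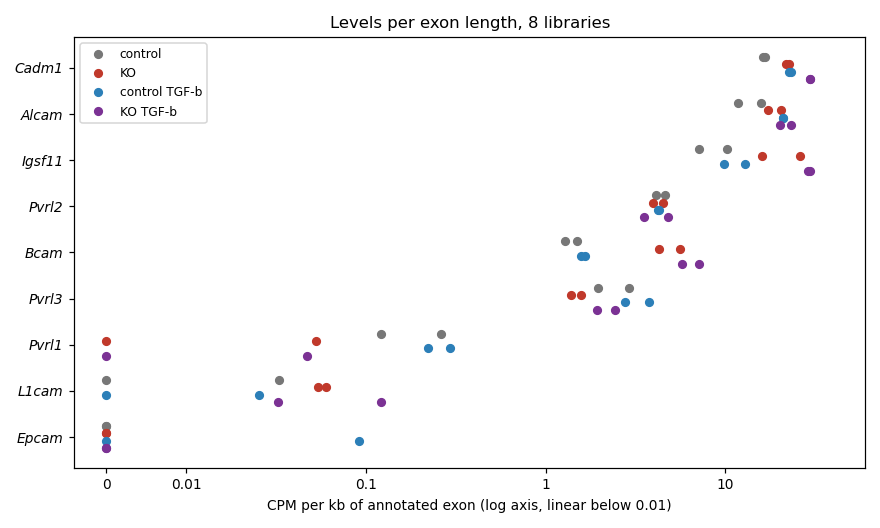
Level of each of the 9 members per kb of annotated exon (horizontal axis, CPM per kb, logarithmic above 0.01) in the 8 libraries, 1 point per library, coloured by group and ordered by the mean. *Cadm1*, *Alcam* and *Igsf11* lie at 7.11 to 29.8 CPM per kb, whereas *Pvrl1*, *L1cam* and *Epcam* reach 0 in some libraries.

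*Bcam*, which encodes the Lutheran glycoprotein, a receptor for laminin chains that contain the α5 subunit, was higher in the libraries labelled KO. It is on chromosome 7 (NCBIM37 chr7:20341480-20356365, minus strand, ENSMUSG00000002980.8). Its level was 4.1 and 4.76 CPM in control and 5.06 and 5.29 CPM in treated control libraries (34, 39, 54 and 50 counts). It was 13.7 and 17.9 CPM in the libraries labelled KO and 18.4 and 22.8 CPM in the treated ones (62, 135, 226 and 287 counts). All 4 libraries labelled KO lay above all 4 control libraries, by more than the gap between any replicates. The mean rose from 4.43 ± 0.466 to 15.8 ± 3.02 CPM without TGF-β (SD, n = 2 each) and stood at 5.18 ± 0.163 against 20.6 ± 3.10 CPM with it. The log2 fold change was 1.84 (SE 0.27, 3.58-fold, adjusted p = 0.0121) untreated and 1.99 (SE 0.26, 3.98-fold, adjusted p = 0.00242) treated, by edgeR's quasi-likelihood test with Benjamini-Hochberg adjustment over all tested genes. In bulk RNA such as this, more RNA per cell and a larger share of cells with the RNA cannot be told apart, and the p-values measure the spread between libraries of a cell line.

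*Igsf11* showed the same order of groups. It lies on chromosome 16 (NCBIM37 chr16:38901584-39027272, plus strand, ENSMUSG00000022790.7), and its promoter and miR-181 seed match are those printed above. Control libraries had 37.2 and 25.8 CPM, treated control libraries 46.9 and 35.6 CPM. Libraries labelled KO had 93.7 and 57.7 CPM and treated ones 108 and 105 CPM, so that the genotypes did not overlap with or without TGF-β, although the untreated KO libraries differed from each other by 0.70 on the log2 scale. The log2 fold change was 1.26 (SE 0.26, 2.39-fold, adjusted p = 0.0488) untreated and 1.37 (SE 0.26, 2.58-fold, adjusted p = 0.0101) treated by edgeR's quasi-likelihood test.

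*Bcam* and *Igsf11* were the 2 of 7 tested members called in the untreated comparison, against 1.83% of all tested genes, and again the 2 of 7 called in the treated comparison, against 15.0% of all tested genes. Calls needed both an adjusted p under 0.05 and a log2 fold change beyond 0.5 in either direction, and both calls were of higher levels in libraries labelled KO. The untreated and treated comparisons share no library, but all 8 libraries were fitted together with a shared estimate of the spread. The same genotypes, with any difference between clones, enter both comparisons, so that the second call is no independent replication. At an unadjusted p below 0.05 stood 5 of the 7 members in each, beside 14.9% of all tested genes untreated and 31.4% treated. The median log2 fold change over the 7 members was 0.43 untreated and 0.06 treated, beside 0.02 and -0.01 over all tested genes.

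The treated calls of both genes held when any 1 of the 8 libraries was left out, with an adjusted p of at most 0.0187 for *Bcam* and 0.0386 for *Igsf11*. The untreated calls did not. *Bcam* lost its call without control replicate 1 (adjusted p = 0.128), control replicate 2 (0.0964) or KO replicate 2 (0.124), with log2 fold changes of 1.74, 1.95 and 1.62 in edgeR's test. *Igsf11* lost it without control replicate 1 (0.130) or 2 (0.376), KO replicate 1 (0.332) or 2 (0.0763) and treated KO replicate 1 (0.0592) or 2 (0.0578), with log2 fold changes between 0.87 and 1.57, and also with limma-voom (1.21, adjusted p = 0.0799).

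**Figure D2:**
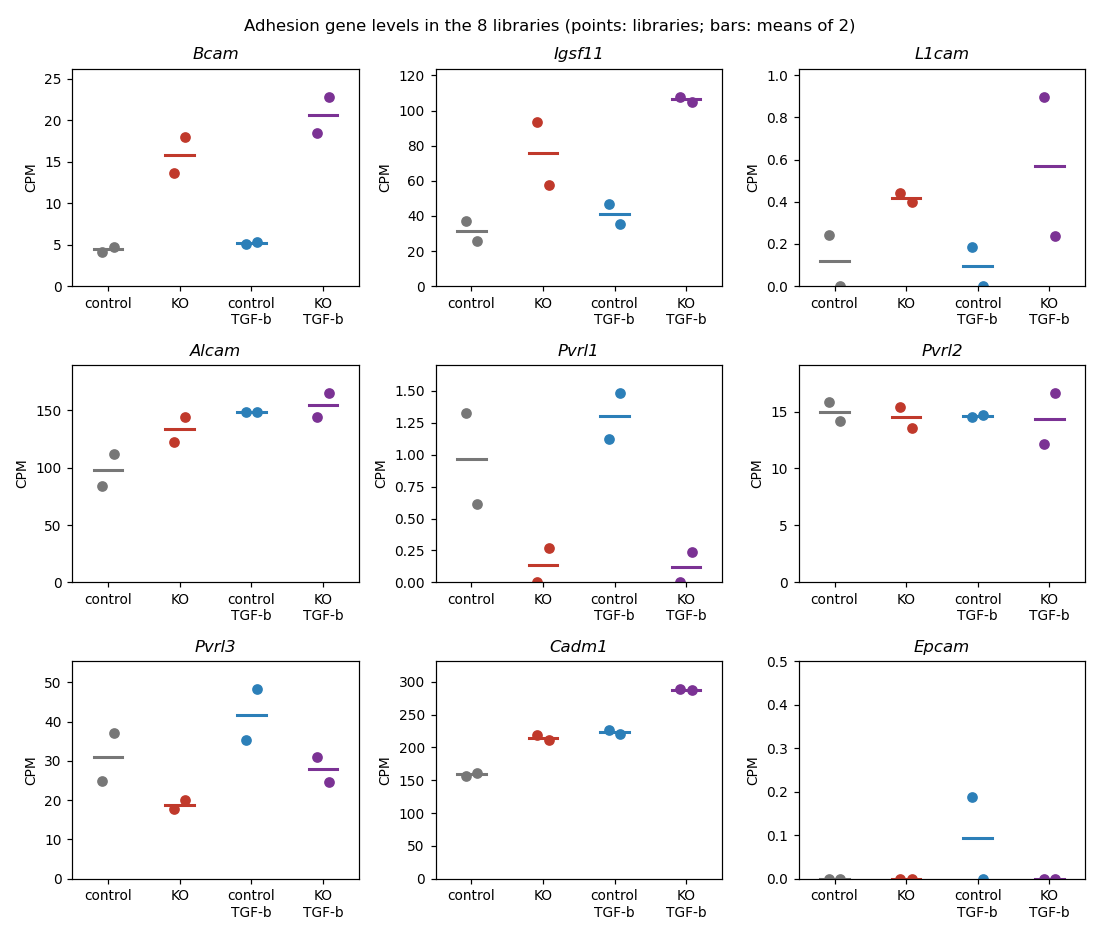
CPM of each member (vertical axis, from 0, with a scale of its own for each gene) in the 4 groups, 2 libraries as points and their mean as a bar. For *Bcam* and *Igsf11* both genotype pairs are apart, while *Pvrl2* lies at 12.1 to 16.6 CPM in every library.

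None of the 3 nectins was called between genotypes, and their values differed in direction, with *Pvrl1* and *Pvrl3* below the controls of the same treatment in every library labelled KO and *Pvrl2* overlapping them. *Pvrl2* (nectin-2, NCBIM37 chr7:20301993-20334922, minus strand) had 15.8 and 14.2 CPM in control, 15.4 and 13.6 in KO, 14.5 and 14.7 in treated control and 12.1 and 16.6 in treated KO libraries. These groups overlapped in every comparison. The genotype log2 fold change was -0.05 untreated (95% interval -0.58 to 0.48) and -0.02 treated (-0.53 to 0.49). The gene is the nearest tested neighbour of *Bcam*, on the same strand.

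*Pvrl3* (nectin-3, NCBIM37 chr16:46387819-46498638, minus strand), a partner that binds nectin-1 and nectin-2 across the junction, had 25.0 and 37.0 CPM in control and 17.6 and 20.1 CPM in KO libraries, and 35.2 and 48.2 against 31.1 and 24.6 CPM after TGF-β. In both pairs of conditions the groups did not overlap. Such separation was common, as 15 of the 23 tested other adhesion genes described below did not overlap untreated and 13 treated. With 2 libraries a group, non-overlap is therefore given here and for the members below as a description only. Its share over all tested genes was not counted. The log2 fold change was -0.71 (SE 0.25, adjusted p = 0.228) untreated and -0.58 (SE 0.24, adjusted p = 0.132) treated by edgeR's test, neither of them called. Without the filter on low counts the untreated difference passed the test (-0.75, adjusted p = 0.0496), and the treated one did so only with a replicate block on exchanged numbers (-0.58, adjusted p = 0.0256), an alternative added after seeing the data.

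*Pvrl1* (nectin-1, NCBIM37 chr9:43552659-43615537, plus strand), the nectin that also serves herpes simplex virus as an entry receptor, was near the limit of detection. Control libraries had 11 and 5 counts and treated control libraries 12 and 14, while libraries labelled KO had 0 and 2 and treated ones 0 and 3. The groups did not overlap, and 3 counts in a library correspond to 0.238 to 0.661 CPM. By counting error alone, with 95% intervals, controls had 5.85 times the KO level untreated (1.38 to 52.5, from 16 and 2 counts) and 10.7 times treated (3.28 to 55.3, from 26 and 3 counts). The treated difference missed the threshold in edgeR's test (log2 fold change -3.29, SE 1.00, adjusted p = 0.0547), passed it with limma-voom (adjusted p = 0.0383) and without the filter (0.0222), and the untreated one was -2.48 with an adjusted p of 0.373. With 1 library left out, the treated value ranged from -6.51 without treated KO replicate 2 to -2.37 without treated KO replicate 1, and the untreated value from -6.21 without KO replicate 2 to -1.82 without KO replicate 1, none of them called. Leaving out either replicate 2 leaves a KO group at 0 counts, where the fitted value depends on the prior count and is no bound.

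Within the nectins, *Pvrl2* made up 57.7 to 67.4% of the summed level per kb in control and 70.8 to 76.4% in libraries labelled KO, and 51.2 to 58.6% against 59.2 to 71.0% after TGF-β. The share of *Pvrl3* was 28.7 to 40.6% in control, 23.6 to 28.3% in KO, 38.3 to 45.3% in treated control and 28.3 to 40.8% in treated KO libraries, so that only the untreated genotypes kept apart in it. *Pvrl1* made up 1.69 to 3.85% of the sum in control, 3.09 to 3.51% in treated control, and at most 0.945% in any library labelled KO. Pvrl4 was among the genes without enough counts, at 41 counts over the 8 libraries.

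*Cadm1* (NCBIM37 chr9:47338256-47665720, plus strand) had replicates that agreed closely, at 157 and 161 CPM in control, 219 and 211 in KO, 226 and 221 in treated control and 288 and 288 in treated KO libraries. No pair of groups overlapped in the comparisons between genotypes or treatments, a separation that was common with 2 libraries a group. The differences were small. They came to 0.43 untreated (SE 0.12, adjusted p = 0.131) and 0.37 treated (SE 0.12, adjusted p = 0.0735) between genotypes on the log2 scale, neither called by edgeR's test.

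*Alcam* (NCBIM37 chr16:52249109-52454187, minus strand) had 83.7 and 112 CPM in control and 122 and 144 CPM in libraries labelled KO, which did not overlap. After TGF-β it had 149 and 149 CPM in control and 144 and 165 CPM in KO libraries, which did. The log2 fold change between genotypes was 0.45 (SE 0.17, adjusted p = 0.262) untreated and 0.06 (SE 0.17, adjusted p = 0.856) treated, neither called.

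*L1cam* (NCBIM37 chrX:71099117-71141444, minus strand), best known for guiding axons and for its appearance in invasive carcinomas, had 2 and 0 counts in control, 2 and 3 in KO, 2 and 0 in treated control and 11 and 3 in treated KO libraries. The ratio of KO to control by counting error alone was 3.42 untreated (95% interval 0.559 to 35.9) and 5.67 treated (1.30 to 51.4), with 11 of the 14 treated KO counts in 1 library. In edgeR's test without the filter on low counts its adjusted p was 0.86 and 0.366 over 20463 genes. The gene overlaps *Arhgap4* on the same strand, which had 66 counts, so that its few counts are uncertain.

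*Epcam* (NCBIM37 chr17:88035319-88050446, plus strand) had 2 counts in 1 treated control library and none in the other 7, below 3 counts everywhere, which corresponds to at most 0.238 to 0.661 CPM depending on the library. Its absence from these counts stood beside high levels of *Cdh1*, *Krt8*, *Krt18* and *Krt19*. The epithelial markers *Cldn3* and *Esrp1* also had 0 counts in every library, and *Krt7* had 4 to 14. The genes of several of its known partners were also at or near 0, with 0 counts for the claudin gene *Cldn7*, 3 for the protease gene *St14* and 22 for the protease inhibitor gene *Spint1* over the 8 libraries. The protease inhibitor gene *Spint2* was plentiful with 6578 counts.

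TGF-β for 2 h gave no called member in either genotype, 0 of 7 in control, against 9.16% of all tested genes, and 0 of 7 in libraries labelled KO, against 6.82% of all tested genes. At an unadjusted p below 0.05 stood 2 members in control (*Cadm1* and *Alcam*) and 1 in KO (*Cadm1*) with edgeR, beside 26.8% and 22.7% of all tested genes, so that 2 of 7 and 1 of 7 are near the background. In the KO libraries DESeq2 and limma-voom called 0 as well. In control limma-voom called 0 and DESeq2 called 1, *Alcam*. These comparisons reuse the libraries of the genotype comparisons, so that their values are given side by side only.

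In control cells *Cadm1* was 0.49 higher after TGF-β on the log2 scale (SE 0.12, adjusted p = 0.0389 in edgeR's test), past the p threshold and just short of the fold threshold, and in cells labelled KO 0.42 higher (SE 0.12, adjusted p = 0.0736). *Alcam* was 0.60 higher in control (SE 0.17, adjusted p = 0.0597), a value that passed with DESeq2 (0.60, adjusted p = 0.0291) and without the filter on low counts (0.60, adjusted p = 0.0159), and 0.21 higher in KO (SE 0.17, adjusted p = 0.514). For *Bcam* the values were 0.22 and 0.37, for *Igsf11* 0.39 and 0.50 and for *Pvrl3* 0.43 and 0.55 in control and KO, with adjusted p-values of 0.229 to 0.645 in edgeR's test. *Pvrl2* differed by -0.04 and -0.01, and *Pvrl1*, on its few counts, by 0.42 and -0.39. The median over the 7 members was 0.42 in control and 0.37 in KO, beside 0.02 and 0 over all tested genes.

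The difference between these TGF-β responses, tested as the interaction, was not called for any of the 7 members (0% of all tested genes called by edgeR, although DESeq2 called 25 genes and edgeR without the filter on low counts 211, 0 members at an unadjusted p below 0.05 beside 8.70% of tested genes, 0 members with DESeq2 or limma-voom). The interaction was -0.39 for *Alcam* (95% interval -0.94 to 0.15, adjusted p = 0.681), 0.15 for *Bcam* (-0.68 to 0.98) and 0.11 for *Igsf11* (-0.71 to 0.92). These intervals are wide, so that equal responses are not shown.

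**Figure D3:**
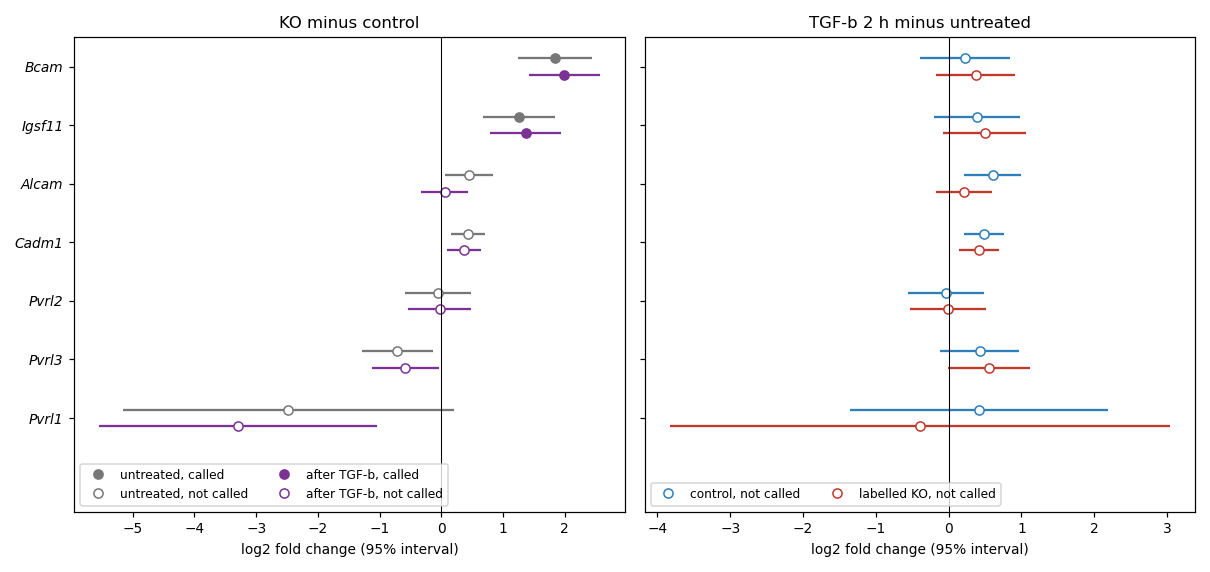
Log2 fold change of the 7 tested members with 95% intervals from edgeR, between genotypes on the left and between TGF-β and untreated on the right. Filled points passed both thresholds, which *Bcam* and *Igsf11* did in both genotype comparisons and no member did for TGF-β.

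Of 40 other immunoglobulin-type and nectin-like adhesion genes, 23 had enough counts. Without TGF-β 2 were called (8.7%, beside 1.83% of all genes), *Jam2* as higher in libraries labelled KO and *Ptk7* as lower. With TGF-β 3 were called (13% beside 15.0%), the same 2 and *Ncam1*. *Jam2*, a junctional adhesion molecule of the tight junction, moved as *Bcam* did, with 31.6 and 30.5 CPM in control, 91.3 and 84.0 in KO, 30.0 and 33.0 in treated control and 148 and 117 in treated KO libraries. Its log2 fold change was 1.49 (SE 0.17, adjusted p = 0.0031) untreated and 2.07 (SE 0.17, adjusted p = 0.000423) treated by edgeR's test. *Ptk7*, a receptor-like pseudokinase of planar polarity, had 16 and 22 counts in control against 1 and 1 in KO libraries, and 29 and 16 against 4 and 5 after TGF-β (log2 fold changes -3.68 and -2.57, adjusted p = 0.0492 and 0.0193). *Ncam1*, the neural cell adhesion molecule, was 0.80 higher in treated KO libraries (SE 0.15, adjusted p = 0.0111). The untreated count fell to 0 without control replicate 2 and to 1 without control replicate 1 or any 1 of the 4 libraries labelled KO. The treated count rose to 5 without treated control replicate 1 and fell to 2 without treated KO replicate 2. Fitted on the 4 compared libraries alone, the counts were 5 untreated and 1 treated, beside 797 and 402 calls over all tested genes. The untreated count was 1 with DESeq2, with limma-voom and with a replicate block, beside 428, 137 and 150 calls over all genes. The treated count was 5 without the filter on low counts, beside 2823 calls over 20463 genes. The list's median log2 fold change was -0.09 untreated and -0.12 treated.

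For TGF-β, 4 of these 23 genes were called in control (17.4% beside 9.16%) and 2 in KO (8.7% beside 6.82%). *Amigo1*, a leucine-rich repeat adhesion molecule, rose in both genotypes by 1.80 and 1.83 on the log2 scale, as did *F11r*, which encodes the tight junction molecule JAM-A, by 0.62 and 0.71. In control *Cd47*, which encodes an integrin-associated protein, was 0.59 higher and *Mpzl2*, an epithelial myelin zero-like molecule, 0.70 lower (log2 fold change -0.70), and both were called there. The control count fell to 0 without either untreated control library and to 2 without either untreated KO library. The KO count fell to 0 without KO replicate 1 and to 1 without KO replicate 2 or treated KO replicate 2, and it rose to 4 without treated KO replicate 1. Without the filter on low counts both counts were 7, beside 2021 calls in control and 1832 in KO over 20463 genes. On the 4 compared libraries alone the control count was 2.

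Of 29 genes for known partners of the members, 22 had enough counts. Untreated, 1 was called (4.55% beside 1.83%), *Bace1*, a protease gene whose product can cleave EpCAM, higher in KO by 0.88 (SE 0.17, adjusted p = 0.0343). Treated, 7 were called (31.8% beside 15.0%). Higher in libraries labelled KO were *Spint2* by 1.66, *Lama5*, the gene of the laminin subunit that *Bcam* binds, by 1.13, *Bace1* by 1.02, the tetraspanin gene *Cd9* by 0.67, the polarity gene *Pard3* by 0.64 and the membrane-actin linker gene *Ezr* by 0.55 on the log2 scale. Lower was *Ssx2ip*, whose product binds afadin, with a log2 fold change of -0.72. *Mllt4*, the afadin gene, had log2 fold changes of -0.01 and 0.11, neither called. *Lama5* had 448 and 428 CPM in control, 443 and 614 in KO, 269 and 182 in treated control and 423 and 562 in treated KO libraries, so that the genotypes were apart only after TGF-β. The untreated call was lost with a replicate block and without any 1 of the untreated libraries or of the treated libraries labelled KO. The treated count fell when KO replicate 1 or 2, treated control replicate 2 or treated KO replicate 2 was left out. On the 4 compared libraries alone it was 1 of 22, in a fit with 402 calls over all tested genes instead of 1959. The excess over all genes thus depended on the fit.

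TGF-β was followed by called changes of 4 partner genes in each genotype (18.2% in each, beside 9.16% and 6.82%). Among those in control, *Spint2* fell by 1.14 and *Lama5* by 0.96 on the log2 scale, and *Itgb1*, the integrin β1 subunit gene, rose by 0.72. Among those in KO, *Itgav*, the integrin αV subunit gene, rose by 1.08 and *Itgb1* by 0.86. The control count was 0 without control replicate 1 and 1 without control replicate 2, and the KO count was 0 without KO replicate 1, KO replicate 2 or treated KO replicate 2. On the 4 compared libraries alone the control count was 1. Without the filter on low counts it was 7, beside 2021 calls over 20463 genes.

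**Figure D4:**
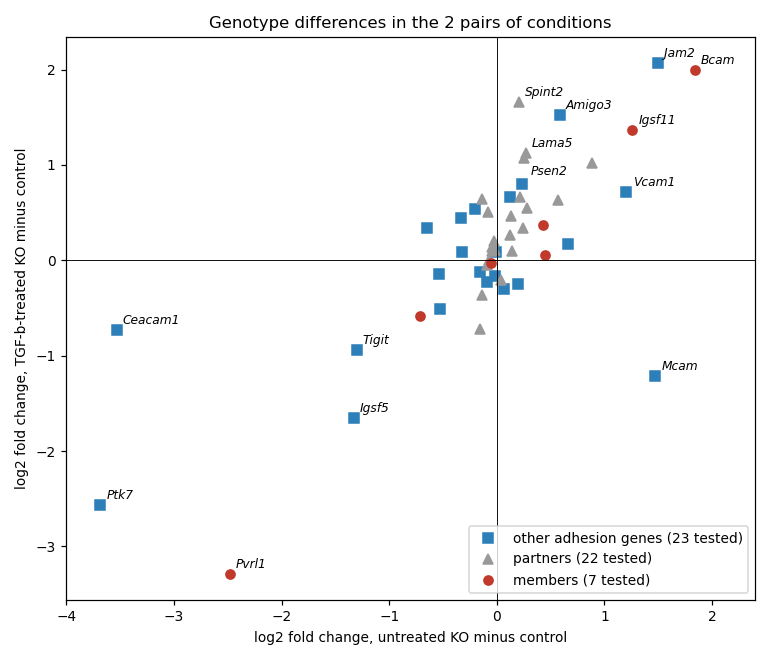
Log2 fold change of KO minus control without TGF-β (horizontal axis) and with it (vertical axis) for the 7 tested members, 23 other adhesion genes and 22 partner genes, with names where either value is beyond about 1. *Bcam*, *Igsf11* and *Jam2* lie at the upper right, and *Ptk7* and *Pvrl1* at the lower left.

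Genes around the called members give the genomic context of both. Within 500 kb of *Bcam* 25 tested genes were found, of which edgeR called 0 untreated (lowest adjusted p = 0.319 at *Apoe*, beside 1.83% of all tested genes called) and 3 treated (beside 15.0%), *Ppp1r13l* (1.37), *Mark4* (1.18) and *Apoc2* (2.98 on the log2 scale), all higher in KO. Its nearest tested neighbours were *Pvrl2* and, 37.4 kb on the other side, *Bcl3*, neither called. Over chromosome 7 the 943 tested genes had a median genotype difference of -0.25 untreated and -0.14 treated on the log2 scale, so that *Bcam* rose on a chromosome whose median was below 0. Within 500 kb of *Igsf11* 9 genes were tested, all on its upstream side, and 3 of them were called as lower in libraries labelled KO after TGF-β, 2 of these also without it, beside the same 15.0% and 1.83%. *Upk1b*, the nearest, had log2 fold changes of -3.18 (adjusted p = 0.00511) and -1.69 (adjusted p = 0.00739), *Arhgap31* of -3.49 and -1.73, and *B4galt4* of -1.79, not called, and -1.86, called. *Igsf11* was thus higher next to called genes that were lower, and the median over chromosome 16 was 0.05 untreated and -0.05 treated. Transcripts that overlap members on either strand had few counts, with 0 for *Gm16733* at *Bcam*, 31 for a U6 copy inside *Igsf11* and 3 for *Gm20512* at *Pvrl2*.

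**Figure D5:**
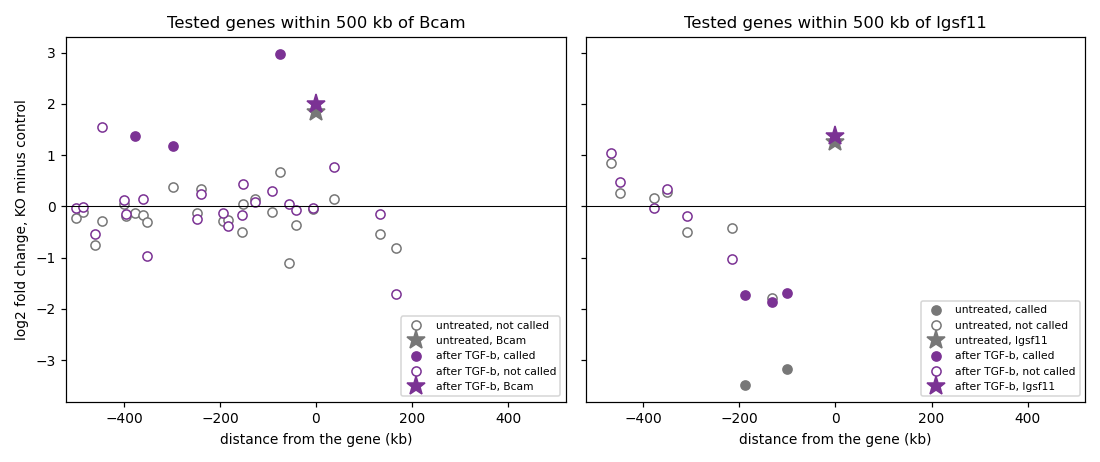
Genotype log2 fold change (vertical axis) of tested genes by distance in kb from *Bcam* (left) and *Igsf11* (right), within 500 kb, untreated in grey and treated in purple, filled where called, with the member as a star. Around *Igsf11* the called genes lie below 0 while *Igsf11* lies above it.

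Over the 8 libraries, the profile most like that of *Bcam* in log2 CPM was that of *Lphn3*, a latrophilin gene (Pearson r = 0.997), and that most like *Igsf11* was *Coro1b*, an actin regulator gene (0.991). The others were *Sh3bp2* for *Cadm1* (0.997), *Gpbp1* for *Pvrl3* (0.990), *Mrpl41* for *Pvrl1* (0.974), *Casp6* for *Alcam* (0.963) and *Cry1* for *Pvrl2* (0.866). With 8 libraries in 4 groups such values are high by choice among 13028 genes, and 43 genes passed 0.95 with *Bcam*, 37 with *Igsf11* and none with *Pvrl2*, so that they describe these libraries only.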

How the data were processed

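The 8 RNA-seq libraries were analysed from the raw counts of reads per gene that the authors deposited in a single table, 1 column per library and no normalization. Per the paper's methods reads were aligned with subjunc to mm10 and mm9, duplicates removed and counts tested with DESeq2. The submitters' processing notes name HISAT2, limma and mm10, and paper and labels also differ on library kit, sequencer and read layout. How reads were counted, and on which strand, is not given in the sources used here, so overlapping genes are uncertain. The 37310 gene identifiers match GENCODE vM1 on NCBIM37 (mm9), used for positions, exon lengths and 3′ UTRs. Promoters and miRNAs are from RefSeq on GRCm38.p6.

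CPM values used TMM factors. Tests were run in edgeR 4.0.16 (R 4.3.3) with filterByExpr over the 4 groups (13028 genes), glmQLFit on all 8 libraries without a block and glmQLFTest, adjusted by Benjamini-Hochberg over all tested genes. Calls required an adjusted p under 0.05 and a log2 fold change beyond 0.5 in either direction, and the interaction the adjusted p alone. The biological coefficient of variation was 0.180. SE is the absolute log2 fold change over the square root of F. Ratios of rare counts carry exact conditional 95% intervals, which cover counting error only. Level per kb is CPM over the length of all annotated exons.

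The members and gene lists were chosen with earlier results of these data known. All members are described. List genes are named where called, up to 6 for each comparison, except for a few that are not reported here, and the nearest tested genes and the gene of highest correlation (log2 CPM, prior count 2) were named by rule. The called genes around Bcam and Igsf11, the list genes with few counts near Epcam, Mllt4 and Pvrl4 were added after their values were seen. Older symbols were matched through RefSeq synonyms. No libraries were duplicates, and all columns were used. The script was tested on simulated data. Alternatives were DESeq2 1.42.0, limma-voom (limma 3.58.1), RLE factors, no filter on low counts, the replicate number as a block, a fit restricted to the compared libraries, no fold threshold and each library left out. Groups follow the sample labels. Totals of 4297832 to 13574397 counts put 3 counts at 0.238 to 0.661 CPM.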

Additional observations from a re-analysis of the deposited data

How the results depend on the processing

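Under the alternatives other than leaving out 1 library, 197 log2 fold changes of members kept their direction and side of the threshold, 7 came to pass it, 1 no longer did and 5 reversed. The called members of the untreated genotype comparison were 2, but 1 with limma-voom, 3 without the filter on low counts (Pvrl3 added) and 0 to 2 when 1 library was left out, and those of the treated one stayed at 2 there and came to 3 with limma-voom and without the filter (Pvrl1 added). For TGF-β in control the count went from 0 to 1 with DESeq2 (Alcam), without the filter (Alcam) and without the fold threshold (Cadm1), and in KO and for the interaction it was 0 under every alternative run. The reversals were of values near 0. The TGF-β log2 fold change of Pvrl2 in KO was 0.0024 with DESeq2, 0.0019 with RLE factors and 0.055 without the filter, its treated genotype difference 0.0087 and the interaction of Cadm1 0.00071 without the filter. Their cause was not tested.

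With 1 library left out, 24 values reversed, none of them called. Those of Pvrl2 ranged from -0.144 to 0.0427 (untreated genotype), -0.262 to 0.190 (treated genotype), -0.112 to 0.0459 (TGF-β in control), -0.241 to 0.210 (TGF-β in KO) and -0.192 to 0.260 (interaction). Those of Pvrl1 ranged from -0.0301 to 1.07 for TGF-β in control, -3.61 to 3.33 for TGF-β in KO and -4.01 to 2.92 for the interaction. The treated genotype difference of Alcam ranged from -0.0393 to 0.156, and the interactions of Bcam from -0.0231 to 0.369, of Igsf11 from -0.208 to 0.492 and of Pvrl3 from -0.183 to 0.401.

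Same-numbered libraries did not deviate together in all pairs (r = 0.0980, -0.473, 0.297 and -0.00915 across genes), and nothing in the labels pairs them. A replicate block left the called members at 2, 2, 0, 0 and 0 and changed all calls from 238 to 150, those of the other adhesion genes from 2 to 1 and those of the partner genes from 1 to 0 untreated. Exchanging the numbers in the treated genotype comparison, an alternative added after seeing the data, gave 4 called members with the replicate block (Pvrl1 and Pvrl3 added) and 2809 calls over all genes. Over all genes, calls ranged with the settings from 41 to 797 (untreated, 238), 402 to 2823 (treated, 1959), 139 to 2021 (TGF-β in control, 1194), 136 to 1832 (TGF-β in KO, 889) and 0 to 211 (interaction, 0). Pvrl1, L1cam and Epcam had at most 14 counts in a library, and the part of depth in this was not tested.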
